A study of Homo sapiens with 4 samples.

Results

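Ribosomal protein genes and their pseudogenes were described in 2 deposited tables of genes that differed between an ADAR knockdown and its control. Members were the listed rows whose gene symbol begins with RPL, RPS or RPLP, with kinases of ribosomal protein S6 left out. Where the symbol was blank, the GENCODE release 29 name of the Ensembl identifier was used. The rule took 23 of 1409 listed genes in HepG2 and 36 of 942 in K562, or 55 different members of 2260 listed genes. Of these rows, 3 in HepG2 and 7 in K562 carried a symbol of their own, and the other 20 and 29 were named through GENCODE.

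Ribosomal proteins are the protein parts of the small (RPS) and large (RPL) ribosomal subunits, which most cells make in great amounts and in matched proportions. Their messenger RNAs are short, abundant and often copied back into the genome by retrotransposition. The copies, called processed pseudogenes, lack the introns of the parent gene, resemble it closely and are numerous in the human genome. Of the 55 members, 53 were such pseudogenes by their GENCODE type. RPL37 and RPL41, both listed in K562 alone, were ribosomal protein genes by their symbol. GENCODE release 29 names 1157 pseudogenes after the 90 ribosomal protein genes and close paralogs that served as parents here.

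ADAR edits adenosine to inosine in double-stranded RNA. HepG2, a hepatocellular carcinoma line, and K562, an erythroleukemia line, each carried a stably transfected plasmid. The plasmid held siRNA that targets ADAR in the knockdown and scrambled siRNA in the control, so control cells were transfected as well. There were 4 groups of 1 sample, each with 2 technical replicates per the labels, and the deposited values are the authors' averages. No difference below therefore has a replicate check, and no p-value or error is given. Every listed gene had passed a 2-fold difference, so the size of a member's fold is partly set by the table, and absence from a table does not show that a gene was unaltered. Library depth is unknown. ADAR averaged 129 under knockdown against 461 in the control in HepG2, and 131 against 275 in K562, in the direction of the labels. Of 10 markers fixed for each cell type, APOE was the 1 hepatocyte marker listed in HepG2, at a low average (21.5 in the knockdown against 8.25). None of the erythroid markers was listed in K562, so the tables do not show whether the cells were those named. The HepG2 table also held 2 of 10 erythroid markers, HBA2 (125 in the knockdown against 47) and HBZ (34.9 against 16.6). It held 3 of 5 fibroblast markers as well, DCN (774 against 261), LUM (1445 against 528) and COL3A1 (34.5 against 323), and their part in the results below was not tested.

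The member with the largest fold was a copy of RPL12, a large-subunit protein at the base of the stalk that recruits translation factors. RPL12P35 (ENSG00000243007) averaged 118.5 in the HepG2 knockdown and 16.5 in its control, and 3.5 in the K562 knockdown against 98.5 in the control. It was thus 6.83-fold higher in HepG2 and 22.1-fold lower in K562, where it had the second lowest log2 fold (rank 2) among 942 genes. The values were high in the HepG2 knockdown and the K562 control and low in the other 2 samples. The other RPL12 copies were each listed once. RPL12P1 averaged 53.5 against 22.25 in HepG2, and RPL12P38 averaged 78 against 27.5 in K562, so both were higher in the knockdown. RPL12P1 lies across from an exon of KIFC1, which is on the opposite strand and was not listed.

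Of the 23 members in HepG2, 16 were higher and 7 lower in the knockdown, or 69.6% higher. Of all listed HepG2 genes 55% were higher and 45% lower, and of the 195 other listed pseudogenes 50.3% were higher and 49.7% lower. In K562, 27 of 36 members were higher and 9 lower, or 75% higher. Of all listed K562 genes 38.2% were higher and 61.8% lower, and of the 236 other listed pseudogenes 48.7% were higher and 51.3% lower. The median log2 fold was 1.10 over the HepG2 members beside 1.05 over all listed HepG2 genes, and 1.18 over the K562 members beside -1.09 over all listed K562 genes. The K562 members thus went mostly in the direction opposite to most of their table, and the HepG2 share stood nearer to that of all its listed genes. Most members are pseudogenes, and both shares stood above those of other pseudogenes (69.6% against 50.3%, and 75% against 48.7%). Of other listed protein-coding genes, 55.5% were higher in HepG2 and 29.1% in K562. No listed gene lies within 2-fold, so the sign of a median follows the commoner direction. Copies of 1 parent are not separate observations. With each parent counted once by its median, 8 of 13 parents (61.5%) were higher in HepG2. In K562, 20 of 25 (80%) were. All listed genes and other pseudogenes were not grouped by parent, so their shares are not a like comparison. The median of a parent with copies in both directions can lie within 2-fold. RPS2 and RPS10 in K562 were counted as higher in this way. The RPS2 averages nevertheless summed to 766 in the knockdown against 1298.5 in the control.

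**Figure D1:**
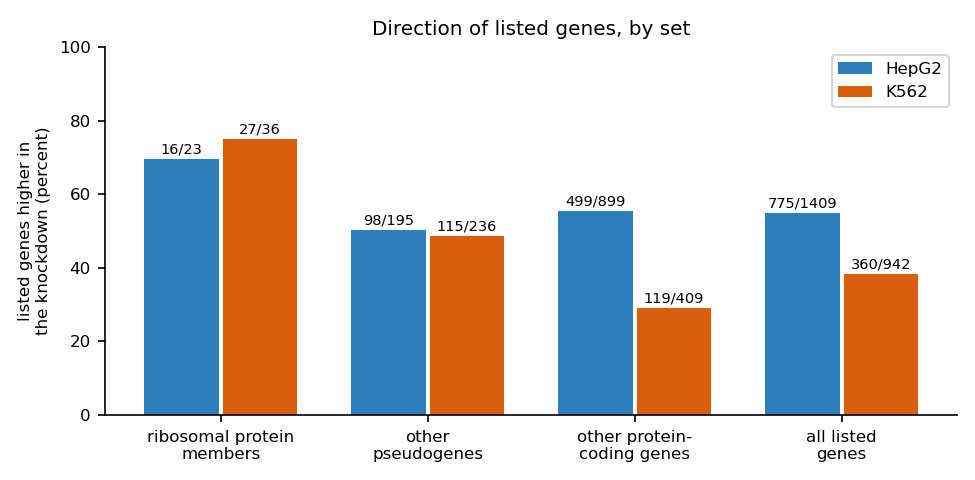
Percent of listed genes that were higher in the ADAR knockdown, from 0 to 100, for the ribosomal protein members, other listed pseudogenes, other protein-coding genes and all listed genes; the counts stand above the bars, and each bar rests on 1 knockdown and 1 control sample. In K562 the members reach 75% while all listed genes reach 38.2%. In HepG2 those bars are closer, at 69.6% and 55%. Other pseudogenes stand at 48.7% in K562 and 50.3% in HepG2.

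The size of the folds was close to that of the tables, with a median of 2.57-fold over the HepG2 members beside 2.56-fold over all listed genes, and 2.38-fold beside 2.41-fold in K562. In HepG2, 11 of 23 members lay below 2.5-fold, and 5 reached 4-fold, where 17.1% of all listed genes and 11.8% of the other pseudogenes did. In K562, 19 of 36 lay below 2.5-fold and 4 reached 4-fold, where 9.34% of all listed genes and 8.9% of the other pseudogenes did. The larger of a member's averages ran from 16.5 to 546.5 in HepG2 and from 18.5 to 4196 in K562. Of the K562 members, 10 had a larger average of 500 or more, against 1 in HepG2, and 5 HepG2 and 3 K562 members stayed below 20. Among all listed genes, 19.5 stood at percentile 11.2 in HepG2 and 20.1 in K562. At the high end, 546.5 stood at percentile 93.7 in HepG2 and 575 at 97.0 in K562. The median larger average was 53.5 over the members beside 49.8 over all listed genes in HepG2, and 97.2 beside 32.0 in K562. How the averages were scaled between knockdown and control is not stated. With the knockdown averages multiplied or divided by 1.5, the listed members still past 2-fold were 84.2% or 50% higher in HepG2, and 96.4% or 43.8% in K562. The same change put all listed genes at 76.3% or 28.2% in HepG2 and at 71.3% or 12.3% in K562. Such a change can only remove listed genes from 1 direction. Genes that it would bring past 2-fold are not listed, so these shares are not those of a rescaled full table.

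**Figure D2:**
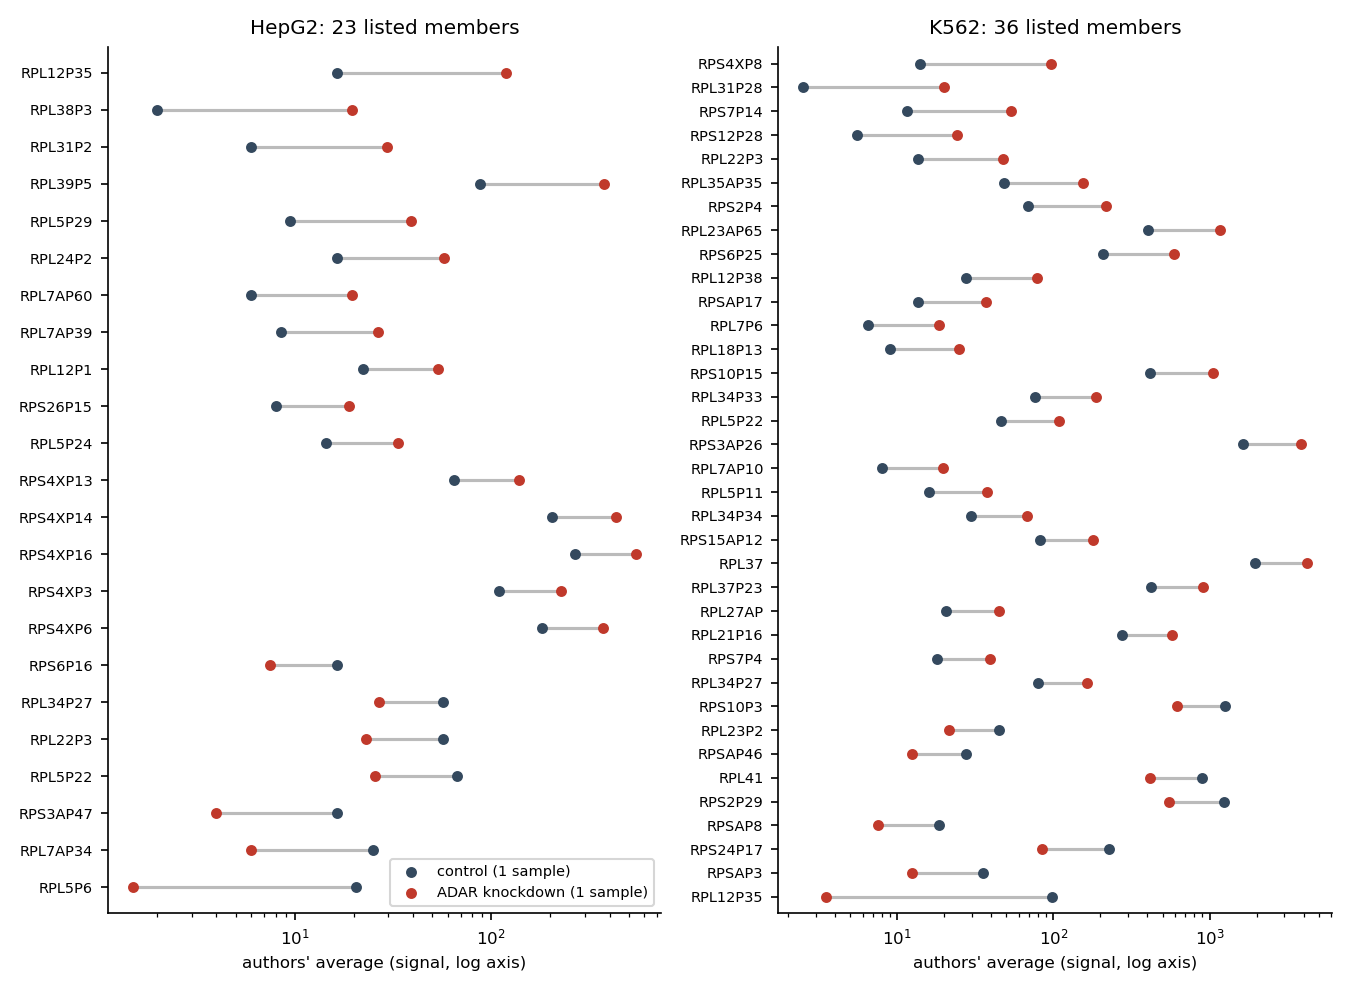
The authors' average in the control and in the ADAR knockdown for each listed member of HepG2 (left) and K562 (right), on a log axis, ordered by fold from highest to lowest; each point is 1 sample. Most members lie higher in the knockdown, and RPL12P35 is among the highest folds in HepG2 and is the lowest in K562.

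Of the 90 parent genes, 2 were listed by symbol in K562 and 0 in HepG2. In K562, RPL37 (ENSG00000145592), a zinc-binding protein of the large subunit, averaged 4196 under knockdown against 1953 in the control and was 2.15-fold higher. RPL41 (ENSG00000198637), a very short basic protein of the large subunit, averaged 413.5 against 892.5 and was 2.16-fold lower. Its identifier is not in GENCODE release 29, so its type could not be looked up. A further row carries the identifier of RPS3A (ENSG00000145425), a small-subunit protein, but the deposited symbol is LOC100130107, so the rule left it out. It averaged 943 against 444 and was 2.12-fold higher. No ribosomal protein gene was listed in HepG2. The levels of the parent genes that were not listed are unknown here.

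RPL37 was the 1 parent listed beside a copy of its own. RPL37P23 averaged 906.5 against 424.5 in K562, 2.13-fold higher beside 2.15-fold for RPL37. The pair is shown because their folds were close. No 76-base window, the length of a read, was shared exactly between them. Within 2 substitutions of RPL37 lay 33.8% of the windows of RPL37P23. The stretch covers coding bases 132 to 251 of RPL37 and is written 5′ to 3′ from GENCODE release 29 transcripts, with each base that differs from the parent in capitals. It lies at chr19:52143174-52143293 (plus strand, GRCh38) for the copy.
RPL37: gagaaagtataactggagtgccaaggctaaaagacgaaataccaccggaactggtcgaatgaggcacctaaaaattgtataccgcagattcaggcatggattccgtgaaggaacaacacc
RPL37P23: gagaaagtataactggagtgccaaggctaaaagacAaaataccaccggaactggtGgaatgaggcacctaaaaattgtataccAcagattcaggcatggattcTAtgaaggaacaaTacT
The copy differed at 7 of these 120 bases and had 95.9% identity over the coding sequence. RPS3AP26 averaged 3824 against 1637.5 in K562 and was 2.33-fold higher, beside 2.12-fold for the RPS3A identifier. Of its 76-base windows, 52.3% were found unchanged in RPS3A transcripts, and how reads that fit several places were handled is not stated.

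In HepG2 the largest group of copies belonged to RPS4X, the X-linked gene of a small-subunit protein. GENCODE names 23 RPS4X pseudogenes, and 5 were listed in HepG2. RPS4XP16 averaged 546.5 under knockdown against 266 in the control, RPS4XP14 averaged 431 against 204.5, and RPS4XP6 averaged 370 against 181.5. RPS4XP3 averaged 226.5 against 109.5 and RPS4XP13 averaged 139 against 64.5. All 5 were higher, within a narrow range of 2.03-fold to 2.14-fold, just inside the 2-fold limit of the table. In K562 another copy, RPS4XP8, was listed at 96 against 14, a 6.47-fold difference that ranked 9 from the highest of 942 genes. RPS4X itself was in neither table. The annotated span of RPS4XP16 has 4 exons, while the transcript compared here has 791 bases. That span overlaps an exon of INTS6-AS1 on the same strand and an exon of INTS6 on the other strand. Neither gene was listed in HepG2. The 5 HepG2 copies are shown because they had nearly equal folds, with RPS4XP8 beside them. Each copy carried a different set of differences from RPS4X, some of them shared between copies (coding bases 192 to 281, differences in capitals).
RPS4X: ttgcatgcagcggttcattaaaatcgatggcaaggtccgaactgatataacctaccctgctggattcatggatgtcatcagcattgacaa
RPS4XP6: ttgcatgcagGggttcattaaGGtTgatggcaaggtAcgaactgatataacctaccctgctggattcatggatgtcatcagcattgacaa
RPS4XP16: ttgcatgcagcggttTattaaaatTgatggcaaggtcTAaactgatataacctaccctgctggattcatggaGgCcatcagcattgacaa
RPS4XP3: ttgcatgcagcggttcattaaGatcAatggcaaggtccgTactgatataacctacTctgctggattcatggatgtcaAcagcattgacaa
RPS4XP14: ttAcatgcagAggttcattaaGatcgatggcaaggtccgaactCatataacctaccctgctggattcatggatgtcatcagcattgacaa
RPS4XP13: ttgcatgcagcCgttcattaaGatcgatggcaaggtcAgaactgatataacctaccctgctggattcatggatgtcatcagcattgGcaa
RPS4XP8: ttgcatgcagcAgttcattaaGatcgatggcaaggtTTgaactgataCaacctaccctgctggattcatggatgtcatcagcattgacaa
In these 90 bases the copies differed from RPS4X at 4 to 6 positions each, at 19 positions in all. No difference was common to the 6 copies, but a change of A to G was shared by all except RPS4XP16. Other differences were shared by fewer copies. The stretches lie at chr5:37085244-37085333 (plus strand) for RPS4XP6, chr13:51460717-51460806 (plus) for RPS4XP16, chr20:56601892-56601981 (plus) for RPS4XP3, chr12:1757735-1757824 (minus) for RPS4XP14, chr11:57576807-57576896 (minus) for RPS4XP13 and chr6:154576500-154576589 (plus) for RPS4XP8. No 76-base window was shared exactly between any pair of them, and their identity to each other was 89.4% to 93.6%. Windows within 2 substitutions of RPS4X made up from 2.16% (RPS4XP8) to 19.0% (RPS4XP6) of a copy. Without the 5 copies, 11 of the 18 remaining HepG2 members were higher.

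RPL5, which carries 5S ribosomal RNA into the large subunit and binds MDM2, had 4 listed copies in HepG2, in both directions. RPL5P29 averaged 39.25 against 9.5 and RPL5P24 averaged 33.5 against 14.5, so both were higher in the knockdown. RPL5P22 averaged 25.5 against 67, and RPL5P6 averaged 1.5 against 20.5, an 8.6-fold lower value. Summed over the 4 copies, the averages were 99.75 in the knockdown and 111.5 in the control. RPL7A, another large-subunit protein, had 3 copies in HepG2: RPL7AP60 at 19.5 against 6, RPL7AP39 at 26.5 against 8.5 and RPL7AP34 at 6 against 25. Their sums were 52 and 39.5. RPL7AP39 overlaps an exon of FAM185A on the same strand, and 52.0% of its 76-base windows also stand in transcripts of another gene.

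In K562, copies of 4 parents went both ways, 2 of them at high averages. RPS10 is a small-subunit protein near the entry of messenger RNA. Its copy RPS10P15 averaged 1054 under knockdown against 413 in the control, while RPS10P3 averaged 622.5 against 1249. The first was 2.55-fold higher and the second 2-fold lower, and their sums were 1676.5 in the knockdown and 1662 in the control, a ratio of 1.01. The copies are shown because they lay close in sequence and went in opposite directions (coding bases 212 to 331 of RPS10, differences in capitals; chr7:128570357-128570476, minus strand, and chr9:88016511-88016630, plus strand).
RPS10: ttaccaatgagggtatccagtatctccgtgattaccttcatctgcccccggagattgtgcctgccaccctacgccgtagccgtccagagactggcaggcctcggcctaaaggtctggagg
RPS10P15: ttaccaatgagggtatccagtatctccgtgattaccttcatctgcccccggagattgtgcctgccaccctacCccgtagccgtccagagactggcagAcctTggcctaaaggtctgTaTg
RPS10P3: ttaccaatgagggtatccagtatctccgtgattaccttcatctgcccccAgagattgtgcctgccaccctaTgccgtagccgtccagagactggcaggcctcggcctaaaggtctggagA
Here RPS10P15 differed from RPS10 at 5 positions and RPS10P3 at 3, with no position in common. The copies shared no exact 76-base window with each other, although 8.85% and 18.1% of their windows were also found in RPS10. Within 2 substitutions of RPS10 lay 58.7% of the windows of RPS10P15 and 60.9% of those of RPS10P3.

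RPS2, a core protein of the small subunit, had RPS2P4 at 215.5 against 68.5 and RPS2P29 at 550.5 against 1230. The first was 3.12-fold higher and the second 2.23-fold lower, with sums of 766 and 1298.5. RPSA, a small-subunit protein also known as the laminin receptor, had 4 copies, of which RPSAP17 was higher (37 against 13.5). RPSAP46 (12.5 against 27.5), RPSAP8 (7.5 against 18.5) and RPSAP3 (12.5 against 35.5) were lower. RPSA was the 1 parent with 2 or more members in a table and most of them lower. The remaining mixed parent was RPL12, described above. Over the 6 mixed groups in both tables, the ratio of summed averages (after adding 1) lay between 0.59 and 1.31, inside the 2-fold limit that each copy alone had passed. These groups were picked for holding both directions, which draws their ratios toward 1. The sums cover listed copies only, such as 2 of 11 GENCODE copies of RPS10 and 4 of 74 of RPSA.

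Parents with 2 or more members and a single direction were all higher in the knockdown. In K562 these were RPL34, RPL37, RPL5 and RPS7. RPS7, a small-subunit protein, had RPS7P14 at 53.5 against 11.5, which was 4.36-fold higher, and RPS7P4 at 39 against 18. RPL5P11 averaged 37.5 against 16 and RPL5P22 averaged 108.5 against 46. RPL34, a large-subunit protein, had RPL34P33 at 186.5 against 76, RPL34P34 at 67.5 against 29.5 and RPL34P27 at 163.5 against 80. In HepG2 they were RPS4X and RPL12. No parent had several members that were all lower.

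**Figure D3:**
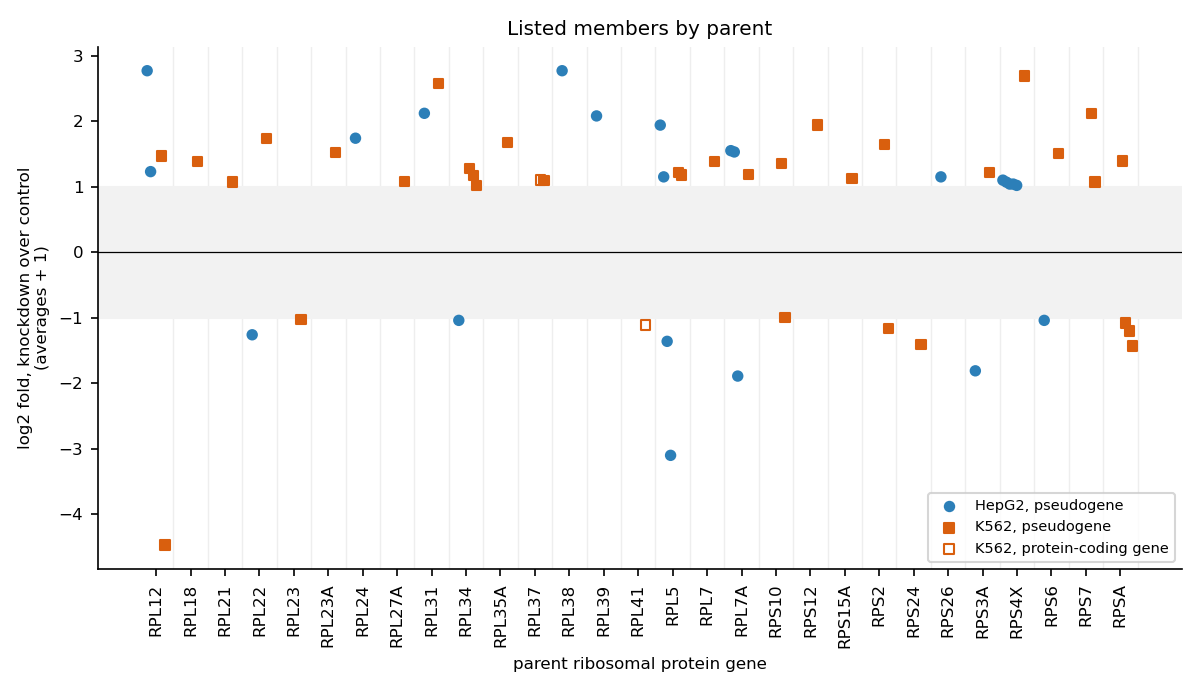
Log2 fold of each listed member (knockdown over control, averages plus 1) by parent gene, for HepG2 (circles) and K562 (squares). Open squares are RPL37 and RPL41. The legend calls both protein-coding, which for RPL41 rests on its symbol alone. The grey band is the range below 2-fold that the tables leave out. RPL5 and RPL7A in HepG2 and RPL12, RPS10, RPS2 and RPSA in K562 have members on both sides of the band, and the 5 RPS4X copies of HepG2 sit at its upper edge.

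Exactly 4 members were in both tables, and each went in opposite directions. RPL22P3 averaged 23 under knockdown against 56.5 in the control in HepG2, and 47.5 against 13.5 in K562. Its parent RPL22 is a large-subunit protein that binds other RNAs as well. RPL34P27 averaged 27 against 56.5 in HepG2 and 163.5 against 80 in K562. RPL5P22 averaged 25.5 against 67 in HepG2 and 108.5 against 46 in K562. These 3 were lower in the HepG2 knockdown and higher in the K562 knockdown, and RPL12P35 was the reverse. Opposite directions were common in general: 62 of 91 identifiers in both tables were opposite, as were 17 of 28 shared pseudogenes that are no members. The cell lines share no samples, and whether the direction differed between them could not be tested with 1 sample a group.

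**Figure D4:**
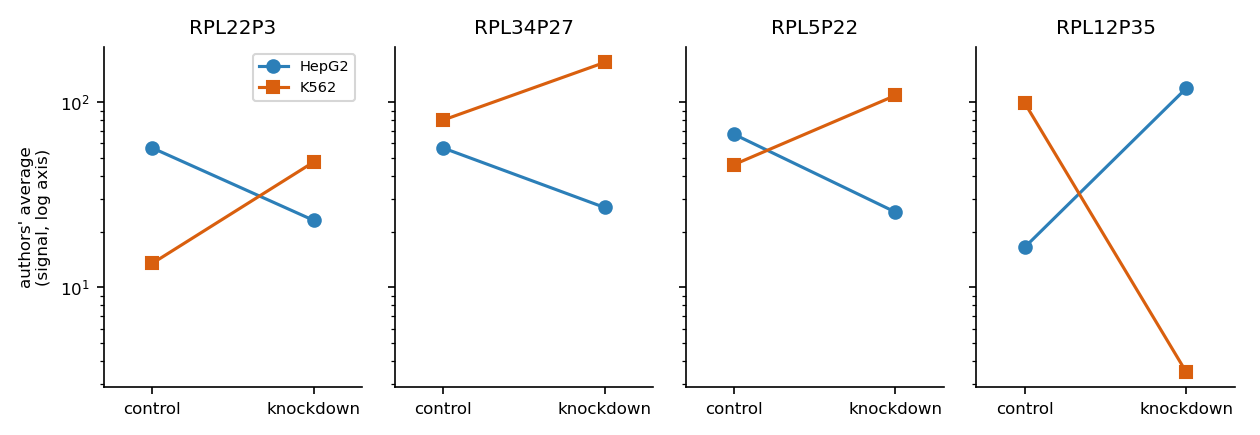
The authors' averages in control and knockdown of HepG2 (circles) and K562 (squares) for the 4 members listed in both tables, on a log axis; each point is 1 sample. The lines run in opposite directions in each panel, and RPL12P35 has the steepest pair (16.5 to 118.5 in HepG2, 98.5 to 3.5 in K562).

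Of the shared copies, RPL22P3 is shown with its parent, as far as they can be told apart by sequence (coding bases 147 to 266 of RPL22, differences in capitals).
RPL22: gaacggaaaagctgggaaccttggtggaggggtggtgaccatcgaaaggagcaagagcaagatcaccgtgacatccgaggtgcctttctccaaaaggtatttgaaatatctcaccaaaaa
RPL22P3: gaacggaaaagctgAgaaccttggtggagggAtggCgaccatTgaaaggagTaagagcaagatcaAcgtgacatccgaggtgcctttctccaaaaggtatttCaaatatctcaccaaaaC
RPL22P3 (chr1:16369265-16369384, minus strand) differed from RPL22 at 8 of 120 bases and lies in an intron of SZRD1, on the other strand. Exact 76-base windows shared with the parent made up 0% of RPL34P27, RPL5P22 and RPL12P35 and 0.33% of RPL22P3. Windows within 2 substitutions of the parent made up 12.0%, 11.9%, 41.8% and 11.1%, in that order.

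For 5 further parents, different copies were listed in the cell lines. RPL31, a protein at the exit of the peptide tunnel, had RPL31P2 at 29.5 against 6 in HepG2 and RPL31P28 at 20 against 2.5 in K562, both higher. The copies of RPS4X were likewise higher in both. RPS6, the substrate of S6 kinases, had RPS6P16 lower in HepG2 (7.5 against 16.5) and RPS6P25 higher in K562 (591.5 against 207.5). RPS3AP47 was lower in HepG2 (4 against 16.5) while RPS3AP26 was higher in K562. RPL7A had copies in both directions in HepG2 and RPL7AP10 higher in K562 (19.5 against 8).

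The other HepG2 members were single copies. RPL38P3 averaged 19.5 against 2, a 6.83-fold difference at a low average, and its parent RPL38 is a small protein of the large subunit. RPL39P5 averaged 373 against 87.75 and was 4.21-fold higher. Its annotated span overlaps an exon of AMOTL2 on the same strand, and AMOTL2 was listed at 238 against 96.4, 2.46-fold higher. The 151-base transcript compared here had 0 windows of 76 bases in another gene. RPL24P2 (57.5 against 16.5) and RPS26P15 (19 against 8) were also higher.

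Among the single copies in K562, RPL23AP65 averaged 1163 against 405.5 and RPL21P16 averaged 575 against 274.25, both higher. RPL23A sits at the tunnel exit of the large subunit. RPL21P16 was identical to the RPL21 coding sequence over its 483 bases, so a read within that stretch reads the same in both genes. RPS12P28 (24 against 5.5), RPL35AP35 (155 against 48), RPL18P13 (25 against 9), RPL7P6 (18.5 against 6.5), RPS15AP12 (179.5 against 81.5) and RPL27AP (44.5 against 20.5) were higher as well. RPL23P2 (21.5 against 45) and RPS24P17 (85 against 227.5) were lower. RPS24 is a small-subunit protein whose gene is mutated in some patients with Diamond-Blackfan anemia.

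By median, the listed copies were closer to their parents than copies listed in neither table. Listed genes had passed 2-fold, and their larger average was at least 14.0 in HepG2 and 13.8 in K562. Whether the unlisted copies had any signal is unknown, so detected copies are set beside copies that may not have been detected. Over the 53 listed pseudogenes the median identity to the coding sequence of the parent was 94.4% (range 85.2% to 100%), against 90.3% over 1107 GENCODE copies listed in neither table. Of the 53, 32 had no 76-base window in common with transcripts of their parent, beside 944 of the 1107 unlisted copies. More than 50% of windows were shared by 2 of the 53, RPL21P16 and RPS3AP26, and by 25 of the 1107. Allowing 2 substitutions in a window, the median share was 14.8% and 7 copies still had none. An intact reading frame of the length of the parent was found in 5 listed copies: RPL12P1, RPL21P16, RPL34P34, RPL37P23 and RPS26P15. It was found in 62 of the 1107 unlisted copies. Gaps against the parent occurred in 38 of the 53 and in 905 of the 1107.

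Direction did not divide the copies by similarity in a uniform way. In HepG2 the median identity was 94.2% for copies that were higher and 93.4% for those that were lower, and in K562 it was 94.5% and 96.2%. The ranges overlapped in both lines. By windows within 2 substitutions of the parent, the medians of higher and lower copies were 14.2% and 11.1% in HepG2 and 16.5% and 40.1% in K562. Of the listed ribosomal protein pseudogenes, 15 of 23 in HepG2 and 15 of 34 in K562 overlap another annotated gene, mostly in an intron. On the same strand, 7 and 8 do so. Overlaps were not counted for other listed pseudogenes or for unlisted copies. Whether these shares differ from the usual rate is therefore unknown. Strand-specific counting is not stated, so reads of either strand may have been counted. AMOTL2 was the 1 overlapping gene that was listed in the same table.

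**Figure D5:**
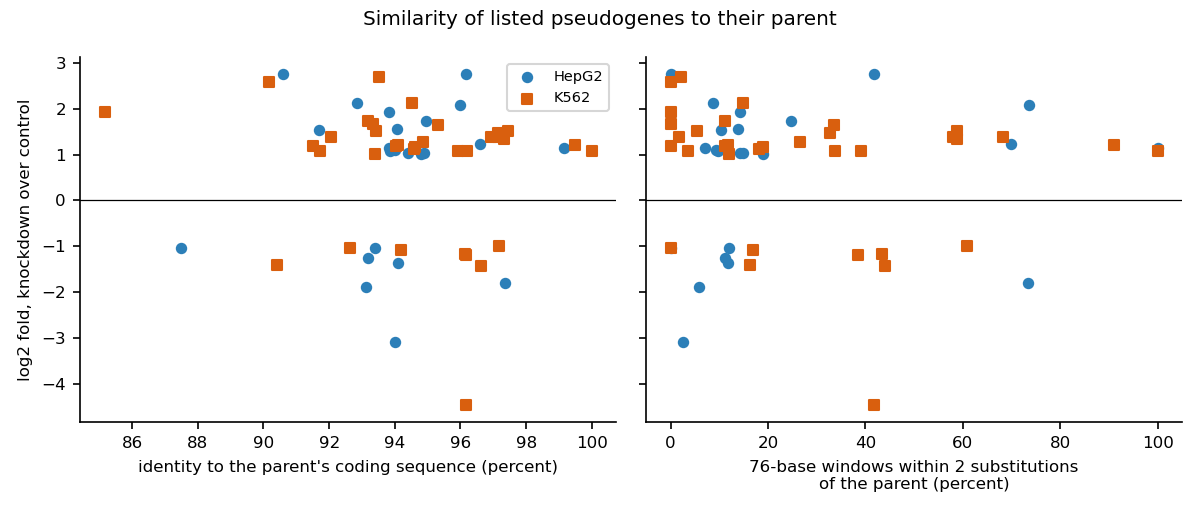
Log2 fold of each listed pseudogene against its identity to the coding sequence of the parent (left) and against the percent of its 76-base windows within 2 substitutions of a parent transcript (right), for HepG2 (circles) and K562 (squares). Copies above and below 0 overlap over most of the range, while lower copies end at 97.4% identity and 73.4% of windows; RPS26P15 in HepG2 and RPL21P16 and RPS3AP26 in K562 lie beyond both values and are higher.

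Other genes of translation were looked up by list. Of 43 translation factors and related genes, EEF1A2, an elongation factor, was listed in HepG2 at 1874 against 904 and was 2.07-fold higher. EIF4E, the cap-binding initiation factor, was listed in K562 at 26 against 63.5 and was 2.39-fold lower. None of 69 ribosome biogenesis genes was in either table, and no mitochondrial ribosomal protein gene was, since the symbols of that form were an antisense gene (MRPL23-AS1) in HepG2 and a pseudogene (MRPS31P5) in K562. Small nucleolar RNAs, which guide the modification of ribosomal RNA and are often encoded in introns of ribosomal protein genes, were listed from such introns in both lines. In HepG2, 5 of 6 were lower, as were all 7 other listed small nucleolar RNAs. Examples were SNORD35B in RPL13A (20.5 against 58.5) and SNORA33 in RPS12 (4 against 22.5). All 5 in K562 were higher, as were 11 of 12 other listed small nucleolar RNAs, so in both lines the direction was that of the listed class. Examples were SNORA66 in RPL5 (39 against 7.5) and SNORD24 in RPL7A (33 against 12.5). SNORA45 in RPL27A was in both tables, lower in HepG2 (5.5 against 18.5) and higher in K562 (17.5 against 4). None of these host genes was listed.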

How the data were processed

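RNA of 4 groups (HepG2 and K562, ADAR knockdown and scrambled control) with 1 sample each was read from both ends (76 bases per read, per the labels). TopHat, SAMtools and hg19 are named in the submitters' processing notes. The sources used here do not name the counting tool, annotation, strand use, treatment of multiply mapping reads or scaling. Per the file headers, the deposited tables hold the authors' averages for knockdown and control, treated as a signal of unnamed unit, for rows past 2-fold. The authors' log2 fold and their deposited score column (a fold with a sign) equal the ratio of the averages after adding 1. In 54 of 59 member rows both averages were whole numbers when multiplied by 1 or 2 (tolerance 1e-06).

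Where a symbol was repeated, its row of highest mean was kept. GENCODE release 29 (GRCh38) matched 1278 of 1413 HepG2 and 840 of 945 K562 identifiers, and 107 and 88 rows had neither a symbol nor a match. Coordinates are GENCODE's. Each pseudogene transcript was aligned locally to the coding sequence of its parent, and its 76-base windows were searched in the transcripts of the parent. On 200 simulated copies, the known substitutions were recovered in 200. Printed stretches are the gap-free ones with the most differences. Some sequences and 1 gene are not reported here. Members and gene lists were chosen with earlier results of these data known. The naming rule took protein-coding members, members in both tables, members of parents with 3 or more listed copies, and per table the 6 highest and 6 lowest folds and the 3 highest averages. The remaining members, the RPS3A identifier and the small nucleolar RNAs were named after their values were seen. With 1 sample per group nothing was tested. Python 3.11.15, numpy 2.4.6, pandas 2.3.3, Biopython 1.88 and matplotlib 3.10.9 were used.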

Additional observations from a re-analysis of the deposited data

Results flagged for a closer look

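All 4 members in both tables stood out because their samples went opposite ways in the cell lines, and the difference was not tested. The log2 fold of K562 minus that of HepG2 was 3.0 for RPL22P3, 2.06 for RPL34P27, 2.58 for RPL5P22 and -7.24 for RPL12P35. In HepG2 the log2 folds were -1.26, -1.04, -1.36 and 2.77 in that order, and in K562 they were 1.74, 1.02, 1.22 and -4.47. Any gene in both tables must differ by at least 2-fold in each, so a gap of at least 2 on the log2 scale follows from opposite directions alone; RPL34P27 lies at that limit and RPL12P35 far from it.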

How the results depend on the processing

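Counts of higher and lower members were unaltered by a pseudocount of 0.1 and by taking every row as deposited. At 3-fold, 6 and 3 members remained higher and lower in HepG2 and 7 and 1 in K562. At 4-fold, 4 and 1 remained in HepG2 and 3 and 1 in K562. In either direction, 17.1% of all listed HepG2 genes and 9.34% of all listed K562 genes reached 4-fold. Their directions were not counted at these limits, so the splits of the members there have no comparison. When low averages (below the lower quartile) were removed, 3 were lower in HepG2. Knockdown averages multiplied by 1.5 left 3 lower in HepG2 and 1 in K562, and divided by 1.5 left 7 higher in each line. Members with a deposited symbol alone were 2 higher and 1 lower in HepG2 and 4 higher and 3 lower in K562. GENCODE protein-coding members were 1 higher and 0 lower in K562, and HepG2 had none. Chosen after seeing the data, counting each parent once gave 8 higher in HepG2 and 5 lower in K562. Median log2 folds were 1.11 and 1.22 with a pseudocount of 0.1, and 1.13 and 1.17 above the lower quartile, in HepG2 and K562. At averages at or above the median of the table, 0 parents in HepG2 had copies in both directions, so that pattern rests on low averages there, while the 4 in K562 remained by count. The median similarity of lower minus higher copies was -0.8 points of identity in HepG2, 0.0 by exact windows and -3.1 by windows within 2 substitutions, and 1.6, 1.5 and 23.6 points in K562. No paired analysis was possible because each group has 1 sample, and for the same reason no sample could be left out.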

Other observations

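Pseudogenes of other translation genes, grouped after their values were seen, went both ways. In HepG2, 4 of 7 were higher and in K562 5 of 13. Of all listed pseudogenes that are no members, a set that includes these, 50.3% and 48.7% were higher. Of all listed genes, 55% and 38.2% were. EEF1A1P19 averaged 342 in the HepG2 knockdown against 139 in the control and EEF1B2P2 averaged 1112 against 534.5 in K562, both higher; their parents encode elongation factors. Copies of NPM1, a nucleolar chaperone of ribosome assembly, were lower in K562, with NPM1P51 at 13.5 against 68, NPM1P25 at 14 against 36.5 and NPM1P50 at 6 against 20. In HepG2, NPM1P26 was higher (19.5 against 3) and NPM1P19 (21.5 against 57) and NPM1P32 (6 against 16.5) were lower. EIF3KP1 was in both tables, higher in HepG2 (19.5 against 8.5) and lower in K562 (21.5 against 48.5).

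The row named RN5S10 with the identifier ENSG00000212237, which GENCODE gives the name of a 5S ribosomal RNA pseudogene, averaged 26 against 7 in HepG2 and 7 against 17 in K562. A second row of that symbol in K562 averaged 48.5 against 20.5, and it too carries a pseudogene identifier.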
